A study of Mus musculus with 6 samples.

Results

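Amino acid and peptide carriers of the villus are the subject here, and 10 genes were followed across double mutant and wild-type duodenal villi. The 10 were taken by symbol from the 20409 features of the count table, and they were chosen with this comparison known, for the rise of *Slc38a1* beside carriers of dietary absorption. Their differences between the groups are therefore given as a description, without a test. RNA came from villus epithelium that EDTA chelation had freed from the duodenum, with 3 mice in each group, 1 male and 2 female. The double mutant mice carried Villin-CreERT2, Smad4 fl/fl and a β-catenin allele with a floxed exon 3, on a C57BL6-enriched background. They received tamoxifen at 0.05 g/kg on 4 consecutive days and were studied 7 days after induction, which removes Smad4 and stabilises β-catenin throughout the intestinal epithelium. The wild-type mice were littermates that received no injection, matched for age and sex, and the ages are not given in the sources used here. Tamoxifen itself and the mutations cannot be told apart in this design.

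Digested protein enters an enterocyte from the lumen as small peptides and as free amino acids. *Slc15a1* encodes PepT1, which takes up di- and tripeptides with protons, and *Slc6a19* encodes B0AT1, the main sodium-driven carrier of neutral amino acids. *Slc3a1* (rBAT) and *Slc7a9* (b0,+AT) form a heterodimer that exchanges cystine and cationic amino acids for neutral ones. On the basolateral side *Slc7a8* (LAT2) exchanges neutral amino acids in a heterodimer with *Slc3a2* (4F2hc, CD98). *Slc38a1* (SNAT1), *Slc38a2* (SNAT2), *Slc1a5* (ASCT2) and *Slc7a5* (LAT1, another partner of *Slc3a2*) are best known for bringing glutamine, other small neutral amino acids and leucine into growing cells. In mm9, *Slc15a1* spans chr14:121858841-121904475, *Slc6a19* chr13:73817193-73842313, *Slc3a1* chr17:85427687-85463583 and *Slc7a9* chr7:36234056-36251055. *Slc7a8* spans chr14:55341053-55400723, *Slc3a2* chr19:8781372-8797859, *Slc1a5* chr7:17366695-17383623 and *Slc7a5* chr8:124405052-124431594, and the pair of *Slc38a* genes is placed further on.

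The levels below are counts-per-million values (CPM) of each library, scaled by the trimmed mean of M values (TMM) to make the libraries comparable. Library totals ran from 19678507 to 26337318 counts, so that 3 counts, the limit a count of 0 allows, correspond to 0.114 to 0.152 CPM; this limit covers counting error only. *Smad4*, the targeted gene, measured 120, 180 and 144 CPM in wild-type against 26.05, 36.8 and 32.1 CPM in double mutant villi. Summed markers of epithelium were alike in both groups (8384 to 9082 CPM in wild-type, 8549 to 8915 in double mutant villi), and 7 stroma and vessel markers summed to at most 5.82 CPM. Wild-type mouse 1, the only male of its group, stood apart from it: its goblet markers summed to 125 CPM against up to 11616 in the other wild-type mice, and its Paneth markers to 7.91 CPM against up to 1500. Nothing says whether mice of a group shared a litter or a day of work, and the p-values measure only the spread between these mice.

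Of the members' promoters, 7 genes had an entry in the RefSeq promoter table (GRCm38.p6), and the 250 bases before the transcription start are shown for the pair of carriers with the largest and nearly equal decreases, *Slc15a1* and *Slc6a19*, and for *Slc38a2*, a carrier that was higher. The *Slc15a1* stretch lies at chr14:121505255-121505504, that of *Slc6a19* at chr13:73692637-73692886 and that of *Slc38a2* at chr15:96699729-96699978, all on the minus strand and written 5′ to 3′. Capitals mark GGCGC, a GC-rich element bound by SMAD proteins, or its reverse complement.
Slc15a1: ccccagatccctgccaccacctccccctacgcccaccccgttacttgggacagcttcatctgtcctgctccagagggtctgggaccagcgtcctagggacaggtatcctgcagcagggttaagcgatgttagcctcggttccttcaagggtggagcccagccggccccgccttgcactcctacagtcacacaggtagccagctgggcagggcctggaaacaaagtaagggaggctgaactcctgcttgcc
Slc6a19: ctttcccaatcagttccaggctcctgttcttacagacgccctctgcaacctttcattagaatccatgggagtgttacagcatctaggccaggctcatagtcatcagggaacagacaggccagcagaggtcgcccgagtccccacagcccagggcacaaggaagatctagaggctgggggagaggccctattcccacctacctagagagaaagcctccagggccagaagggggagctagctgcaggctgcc
Slc38a2: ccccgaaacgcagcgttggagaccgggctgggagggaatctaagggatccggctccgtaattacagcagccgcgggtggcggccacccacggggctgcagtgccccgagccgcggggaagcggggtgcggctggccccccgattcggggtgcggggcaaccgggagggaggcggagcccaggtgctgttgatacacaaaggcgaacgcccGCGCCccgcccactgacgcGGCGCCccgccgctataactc

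In the 300 bases from 250 before to 50 after the start, 5 elements were searched on both strands: the TCF/LEF element CTTTGAT, the E-box CACGTG, the amino acid response element TGATGCAA, the palindromic SMAD element GTCTAGAC and the shorter GGCGC. *Slc38a1*, *Slc1a5* and *Slc7a5* had no promoter entry, so *Slc38a2* was the only carrier with a higher level that was searched. The last element, GGCGC, held by 36.9% of all 32851 promoters, occurred in *Slc38a2* only among the 7 members with a promoter. Its matches began 40, 21 and 20 bases upstream of the start, the latter pair overlapping on opposite strands, and 24 and 41 bases downstream. The TCF/LEF element (held by 3.73% of all promoters), the E-box (7.15%), the amino acid response element (0.895%) and the palindromic SMAD element (0.213%) were in none of these 7 windows. The *Slc38a2* stretch was 72% G or C with 30 CpG dinucleotides, where all promoters had a median of 52.4% and 6. *Slc15a1* had 62% and 7 CpG, *Slc6a19* 57.6% and 3, *Slc7a8* 55.6% and 14, *Slc3a2* 53.6% and 11, and *Slc3a1* 45.6% and 6. *Slc7a9* has a pair of starts, at 44.4% with 4 and 52.4% with 6.

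The 10 carriers split by role. All 4 that serve apical uptake of peptides and amino acids, and both chains of the basolateral LAT2 exchanger, were lower in the double mutant villi. The 4 carriers of growing cells were higher, although *Slc3a2*, grouped here with LAT2, is also the partner of *Slc7a5*. In each of the 10 genes the groups did not overlap, as was the case in 52.4% of the 13346 genes tested. The edgeR quasi-likelihood fit over all genes put 3 members past an adjusted p of 0.05 on the higher side and 6 on the lower side, beside 19.7% and 17.0% of all tested genes (36.8% in either direction), and *Slc7a5* was not past it. As the members were chosen from this comparison, these counts only describe them and are no test of them. Of all calls 53.7% were higher, and 72.4% when the libraries were scaled by their size alone, which moved the median log2 fold change of all genes from 0.02 to 0.22; no member turned its direction under that scaling. The members' median log2 fold change was -0.65.

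**Figure D1:**
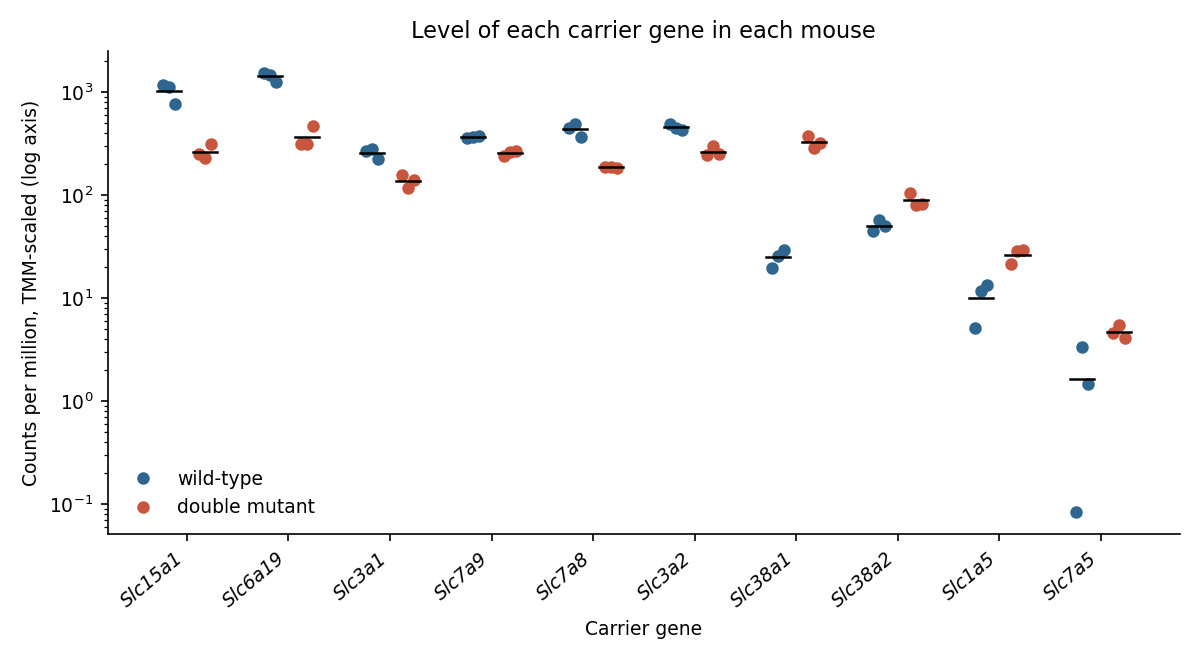
Level of each of the 10 carrier genes in TMM-scaled CPM on a log axis, with 1 point for each mouse and a bar at the group mean (3 wild-type mice in blue, 3 double mutant mice in red). The 6 genes on the left are lower in every double mutant mouse and the 4 on the right are higher; the lowest point is *Slc7a5* in wild-type mouse 1, which rests on 2 counts.

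The apical peptide carrier *Slc15a1* measured 1158, 1103 and 768 CPM in the 3 wild-type mice and 251, 228 and 310 CPM in the 3 double mutant mice. Every double mutant mouse lay below the lowest wild-type mouse, and the log2 fold change was -1.94 (SE 0.188), or 3.84-fold lower. *Slc6a19* ran from 1250 to 1533 CPM in wild-type villi (values 1533, 1466 and 1250). In the double mutant villi it measured 309 and 312 CPM in mice 1 and 2 and 471 CPM in mouse 3. Its log2 fold change of -1.96 (SE 0.188) was almost that of *Slc15a1*, and in both genes double mutant mouse 3 was the highest of its group and wild-type mouse 3 the lowest of its own.

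The rBAT and b0,+AT chains, whose proteins work as a pair, were lower by unequal amounts. *Slc3a1* was at 264, 278 and 225 CPM in wild-type against 157, 117 and 139 CPM in double mutant villi (log2 change -0.89, SE 0.140). *Slc7a9* was at 359, 364 and 376 CPM in wild-type against 241, 259 and 268 CPM in double mutant villi (-0.52, SE 0.100), the smallest difference of the 10 on the log2 scale and the one with the smallest standard error. Scaled by library size alone, its log2 fold change was -0.33. The ratio of *Slc3a1* to *Slc7a9*, per exon length, was 0.845, 0.877 and 0.688 in wild-type against 0.749, 0.519 and 0.597 in double mutant mice, so the groups overlapped. Of the exon bases of *Slc3a1*, 26.4% (608 of 2307) also lie under exons of *Prepl* on the opposite strand, which measured 75.2 ± 8.10 CPM (SD, n = 3) in wild-type against 47.0 ± 4.73 CPM in double mutant villi. Whether reads were counted by strand is not given in the sources used here, and without it reads of the shared bases cannot be assigned to either gene.

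On the basolateral side, *Slc7a8* measured 442, 486 and 369 CPM in wild-type against 188, 189 and 183 CPM in double mutant villi. The 3 double mutant mice were within a narrow range (187 ± 3.12 CPM, SD, n = 3, against 432 ± 59.3), and the log2 fold change was -1.21 (SE 0.125). Its partner *Slc3a2* measured 486, 444 and 428 CPM in wild-type against 246, 296 and 247 CPM in double mutant villi (log2 change -0.78, SE 0.120). Per exon length there were 1.5, 1.25 and 1.58 *Slc3a2* units for each of *Slc7a8* in wild-type against 1.78, 2.14 and 1.84 in double mutant mice, with no overlap. A stretch of 100 bases occurring also in another gene was found for *Slc3a2* alone, over 0.980% of its positions.

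Markers of several villus cell types moved with these 6 genes. The 14 enterocyte markers, brush-border and lipid-handling genes such as *Sis* and *Lct*, summed to 60200 to 68813 CPM in wild-type against 39693 to 42912 CPM in double mutant villi, with 9 of 14 lower and 1, *Fabp1*, higher. Tuft cell markers summed to 116 to 171 CPM in wild-type against 14.7 to 15.8 CPM in double mutant villi (6 of 6 tested lower), and enteroendocrine markers to 231 to 332 against 103 to 114 CPM (6 of 8 lower). Goblet markers summed to 4669 to 5064 CPM in double mutant mice, between wild-type mouse 1 and the other wild-type mice (11616 and 11039 CPM), and Paneth markers to 154 to 248 CPM, likewise below wild-type mice 2 and 3 (909 and 1500 CPM). No gene of either list was lower past the threshold, and 1 of 8 goblet genes, *Clca1*, was higher (log2 fold change 1.5, edgeR adjusted p = 0.00679). Lymphocyte markers summed to 86.9 to 173 CPM in wild-type against 75.1 to 116 CPM in double mutant mice, with 2 of 8 tested lower, *Ptprc* (-1.29, edgeR adjusted p = 0.00545) and *Cd8a* (-0.92, edgeR adjusted p = 0.0191). Relative to 1000 CPM of the enterocyte markers alone, the 4 apical members together had 48.2, 53.1 and 43.5 CPM in wild-type against 24.1, 21.4 and 28.3 CPM in double mutant mice. That sum was carried by its larger members, and the 4 genes differed on this scale. *Slc15a1* stood at 16.8, 18.2 and 12.8 in wild-type against 6.31, 5.31 and 7.37 in double mutant mice, and *Slc6a19* at 22.3, 24.2 and 20.8 against 7.80, 7.28 and 11.2, both without overlap. *Slc3a1* (3.84, 4.59 and 3.74 against 3.96, 2.72 and 3.31) overlapped between the groups. *Slc7a9* overlapped as well and was not lower on this scale (5.22, 6.01 and 6.25 against 6.07, 6.03 and 6.37). Of the basolateral pair, *Slc7a8* (6.42, 8.03 and 6.13 against 4.75, 4.39 and 4.36) and *Slc3a2* (7.06, 7.34 and 7.12 against 6.21, 6.91 and 5.88) did not overlap. In bulk tissue fewer cells of a type and less RNA per cell cannot be told apart, and the part of these cell types in the differences was not tested beyond the ratios to enterocyte markers.

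*Slc38a1* was the member that differed most. It measured 19.7, 25.8 and 29.3 CPM in wild-type villi and 375, 288 and 321 CPM in double mutant villi, from 474, 475 and 579 counts and from 7990, 6206 and 6758 counts. The lowest double mutant mouse was far above the highest wild-type mouse, and the log2 fold change of 3.72 (SE 0.182) was 13.1-fold. Leaving out each mouse in turn gave 3.57 to 3.84. The closely related *Slc38a2*, which lies next to it in the genome, measured 44.5, 57.2 and 49.7 CPM in wild-type against 105, 80.0 and 82.0 CPM in double mutant villi (log2 change 0.82, SE 0.149).

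The pair of SNAT genes thereby changed places. Per exon length the ratio of *Slc38a1* to *Slc38a2* was 0.245, 0.249 and 0.325 in the wild-type mice and 1.96, 1.98 and 2.16 in the double mutant mice. In mm9 coordinates *Slc38a1* spans chr15:96401849-96473344 and *Slc38a2* chr15:96517825-96530129, both on the minus strand and 44481 bases apart. Of the genes annotated within 500 kb of *Slc38a1*, the only others tested were *Arid2*, a chromatin remodelling subunit (45.4 ± 5.57 CPM in wild-type, 44.1 ± 8.48 in double mutant villi, SD, n = 3; log2 fold change -0.04, edgeR adjusted p = 0.862), and *Scaf11*, a splicing-related gene (69.8 ± 4.95 and 78.8 ± 6.72 CPM; 0.18, edgeR adjusted p = 0.259). *Slc38a4*, the third SNAT gene of the cluster, had at most 8 counts in any mouse and was not tested.

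*Slc1a5*, the ASCT2 exchanger of neutral amino acids, measured 5.08, 11.6 and 13.4 CPM in wild-type against 21.2, 28.8 and 29.2 CPM in double mutant villi (log2 change 1.40, SE 0.337). Leaving out each mouse in turn gave 1.08 to 1.67. *Slc7a5* was scarce in wild-type villi, with 2, 62 and 29 counts (0.0833, 3.37 and 1.47 CPM), and had 97, 117 and 86 counts (4.55, 5.43 and 4.08 CPM) in double mutant villi. The groups did not overlap, yet the estimate was imprecise (log2 fold change 1.54, SE 0.867) and ran from 0.96 without wild-type mouse 1 to 2.63 without wild-type mouse 2. The heavy chain *Slc3a2* exceeded *Slc7a5* per exon length by 64.3 to 71.9 times in the double mutant mice and by 157, 347 and 6934 times in wild-type mice 2, 3 and 1, the last value resting on 2 counts of *Slc7a5*.

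Wild-type mouse 1 had the lowest value of its group in all 4 carriers of growing cells. It was also lowest in the summed crypt stem and progenitor markers (104 CPM, against 206 and 215 in wild-type mice 2 and 3) and in the dividing cell markers, whose wild-type sums ran from 19.4 to 64.0 CPM. In double mutant villi the crypt markers summed to 454 to 594 CPM (7 of 10 higher, none lower) and the dividing cell markers to 129 to 166 CPM (8 of 10 higher). The largest parts of that crypt sum were *Prom1* (mean 163.5 CPM), *Rnf43* (106) and *Olfm4* (101.6), while *Lgr5* was at 2.85. Relative to 100 CPM of crypt markers, *Slc38a1* was at 19.0, 12.5 and 13.6 CPM in wild-type against 63.2, 63.4 and 60.3 CPM in double mutant mice. *Slc38a2* went the other way on this scale, at 42.8, 27.8 and 23.1 CPM in wild-type against 17.7, 17.6 and 15.4 CPM in double mutant mice. *Slc1a5* overlapped between the groups, at 4.89, 5.62 and 6.22 against 3.57, 6.35 and 5.50 CPM. The part of crypt-type or dividing cells in the higher levels was not tested beyond these ratios.

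Per exon length, which allows for the unequal lengths of the genes, the order of the carriers differed between the groups. The part of RNA quality in the levels of different genes was not tested. In wild-type villi *Slc15a1* (323 ± 67.6 CPM per kilobase, SD, n = 3) and *Slc6a19* (283 ± 29.5) led and overlapped each other. *Slc3a2* (153 ± 10.1), *Slc7a9* (138 ± 3.27), *Slc3a1* (111 ± 11.8) and *Slc7a8* (107 ± 14.7) followed, the last pair overlapping. *Slc38a2* stood at 10.9 ± 1.39, *Slc38a1* (2.97 ± 0.575) and *Slc1a5* (2.41 ± 1.05) overlapped below it, and *Slc7a5* was lowest at 0.467 ± 0.470. With the longest transcript in place of all exons, *Slc6a19* (338) came before *Slc15a1* and *Slc7a9* (176) before *Slc3a2* (161), and *Slc1a5* (3.57) before *Slc38a1* (3.22).

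In double mutant villi the upper 5 drew together. *Slc7a9* (96.5 ± 5.10 CPM per kilobase, SD, n = 3), *Slc3a2* (89.0 ± 9.74), *Slc15a1* (84.1 ± 13.5), *Slc6a19* (72.8 ± 18.5) and *Slc3a1* (59.7 ± 8.73) each overlapped the next. *Slc7a8* (46.3 ± 0.775) and *Slc38a1* (39.1 ± 5.25) came next without overlap, above *Slc38a2* (19.3 ± 3.04), *Slc1a5* (6.35 ± 1.09) and *Slc7a5* (1.33 ± 0.194). With the longest transcript, *Slc6a19* (86.9) came before *Slc15a1* (84.1) here too. In level per length, *Slc38a1* stood at percentile 40.4 of all tested genes in wild-type villi and at 86.9 in the double mutants. *Slc38a2* stood at 65.5 and 77.1, and *Slc15a1* at 96.8 and 92.8.

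Summed per length, the 4 apical members measured 855 ± 105 CPM per kilobase in wild-type against 313 ± 36.8 in double mutant villi (SD, n = 3). The 4 carriers of growing cells summed to 13.2, 19.2 and 17.9 in wild-type against 73.9, 60.1 and 64.2 CPM per kilobase in double mutant mice. The apical sum remained the larger in every double mutant mouse, where its lowest value was 284. All 10 members together held 0.337% to 0.395% of the counts in wild-type against 0.191% to 0.219% in double mutant mice.

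**Figure D2:**
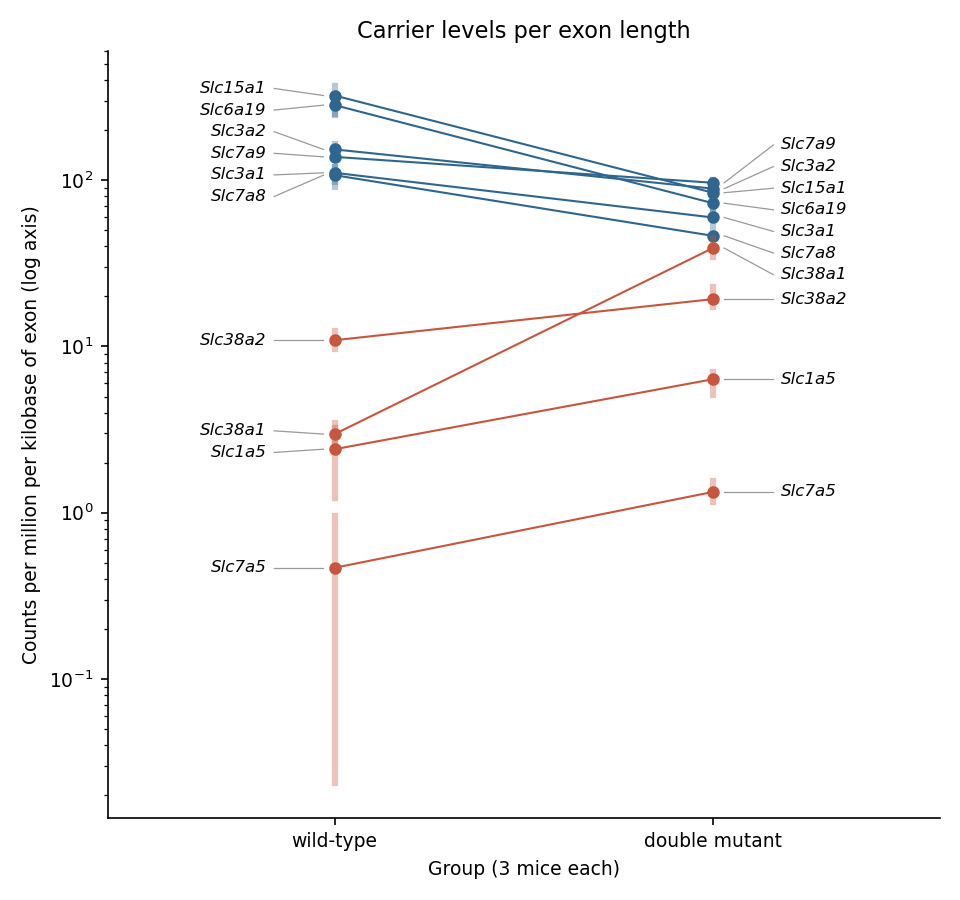
Mean level of each carrier in TMM-scaled CPM per kilobase of exon (log axis) in wild-type and double mutant villi, with pale bars over the range of the 3 mice. Lower genes are blue and higher genes red; *Slc38a1* crosses *Slc38a2*, from 2.97 to 39.1, and the 5 upper genes lie between 59.7 and 96.5 in double mutant villi.

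Carriers outside the 10 were read from lists of the same families. Of 59 listed, 34 were tested: 5 were higher, 11 lower and 18 did not pass the edgeR threshold, with a median log2 fold change of -0.23. Over all tested genes 19.7% were higher and 17.0% lower, the shares beside which this and each later list count is to be read. Of the 16 calls, 7 passed in each of the 6 fits that left out 1 mouse, and the number of higher calls was 3 without double mutant mouse 1 or 3. Among the lower calls, *Slc6a20a*, *Slc36a4*, *Slc1a7*, *Slc15a2* and *Slc25a22* were lost without double mutant mouse 1. Among 6 other apical carriers 2 were lower and none was higher. The proton-coupled carrier of small amino acids *Slc36a1* (PAT1) fell from 579 ± 101 to 171 ± 32.9 CPM (SD, n = 3; log2 fold change -1.76, SE 0.184, edgeR adjusted p = 0.000337). The proline carrier *Slc6a20a* was lower in all 3 double mutant mice (-0.69, edgeR adjusted p = 0.0323). That call was lost without wild-type mouse 1 (-0.53) or 2 (-0.67) and without double mutant mouse 1 (-0.70) or 2 (-0.52).

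Of 4 other basolateral carriers 2 fell, in all 3 double mutant mice. *Slc43a2* (LAT4), a uniporter of branched-chain amino acids and phenylalanine, went from 1288 ± 300 to 481 ± 38.0 CPM (SD, n = 3; log2 fold change -1.42, SE 0.179, edgeR adjusted p = 0.000702). *Slc16a10* (TAT1), which carries aromatic amino acids, went from 388 ± 90.3 to 127 ± 18.3 CPM (-1.61, SE 0.192, edgeR adjusted p = 0.000609). The y+L system genes did not pass: *Slc7a7* had a log2 fold change of -0.43 (edgeR adjusted p = 0.0662), and passed without wild-type mouse 3 (-0.55). The scarce *Slc7a6* had one of 2.06 (edgeR adjusted p = 0.0577) and passed without wild-type mouse 1 (1.5) or 2 (3.10).

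Of 3 other carriers tested from the list of growing cells, 2 were higher. The cationic amino acid carrier *Slc7a1* (CAT1) rose from 18.6 ± 5.96 to 36.6 ± 4.99 CPM (SD, n = 3; log2 fold change 0.98, edgeR adjusted p = 0.0143), a call lost without double mutant mouse 1 (0.87). The glycine carrier *Slc6a9* (GlyT1) rose from 2.02 ± 1.32 to 9.78 ± 2.71 CPM (2.29, edgeR adjusted p = 0.0158), lost without double mutant mouse 3 (2.05). *Slc1a4* (ASCT1), a relative of *Slc1a5*, had a log2 fold change of 0.60 and did not pass (edgeR adjusted p = 0.120). *Slc38a3* and *Slc38a4* were too low to test and *Slc38a5* was not analysed here.

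The remaining SNAT genes were read for comparison with *Slc38a1* and *Slc38a2*. *Slc38a10* was at 146 ± 12.7 CPM in wild-type against 122 ± 11.9 in double mutant villi (SD, n = 3; log2 fold change -0.26). *Slc38a6* had a log2 fold change of 0.31, *Slc38a7* one of -0.25 and *Slc38a9*, a lysosomal arginine sensor, one of -0.02. In none of these 4 genes was the difference past the edgeR threshold, and in all 4 the groups overlapped. *Slc38a8* and *Slc38a11* stayed under 2 CPM in every mouse and were not tested.

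Of the 6 lysosomal and peptide-histidine carriers 2 were lower, among them the cystine exporter *Ctns*, from 34.4 ± 0.979 to 22.0 ± 1.46 CPM (SD, n = 3; log2 fold change -0.65, edgeR adjusted p = 0.00318). Of 7 mitochondrial carriers 1 was higher, the aspartate-glutamate carrier *Slc25a12* (0.63, edgeR adjusted p = 0.0145), and 2 were lower, including the branched-chain amino acid carrier *Slc25a44*, from 129 ± 5.29 to 64.6 ± 4.98 CPM (-1.0, edgeR adjusted p = 0.000359). Of 8 further plasma membrane genes 2 were higher and 3 lower. The glutamate carrier *Slc1a3* rose from 0.448 ± 0.194 to 1.89 ± 0.686 CPM (2.06, edgeR adjusted p = 0.0102). The renal-type peptide carrier *Slc15a2* (PepT2) was at 6.63 ± 4.08 and 1.34 ± 0.999 CPM (-2.30, edgeR adjusted p = 0.0381), a call lost without wild-type mouse 2 (-1.69) or 3 (-2.46) or double mutant mouse 1 (-2.35).

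**Figure D3:**
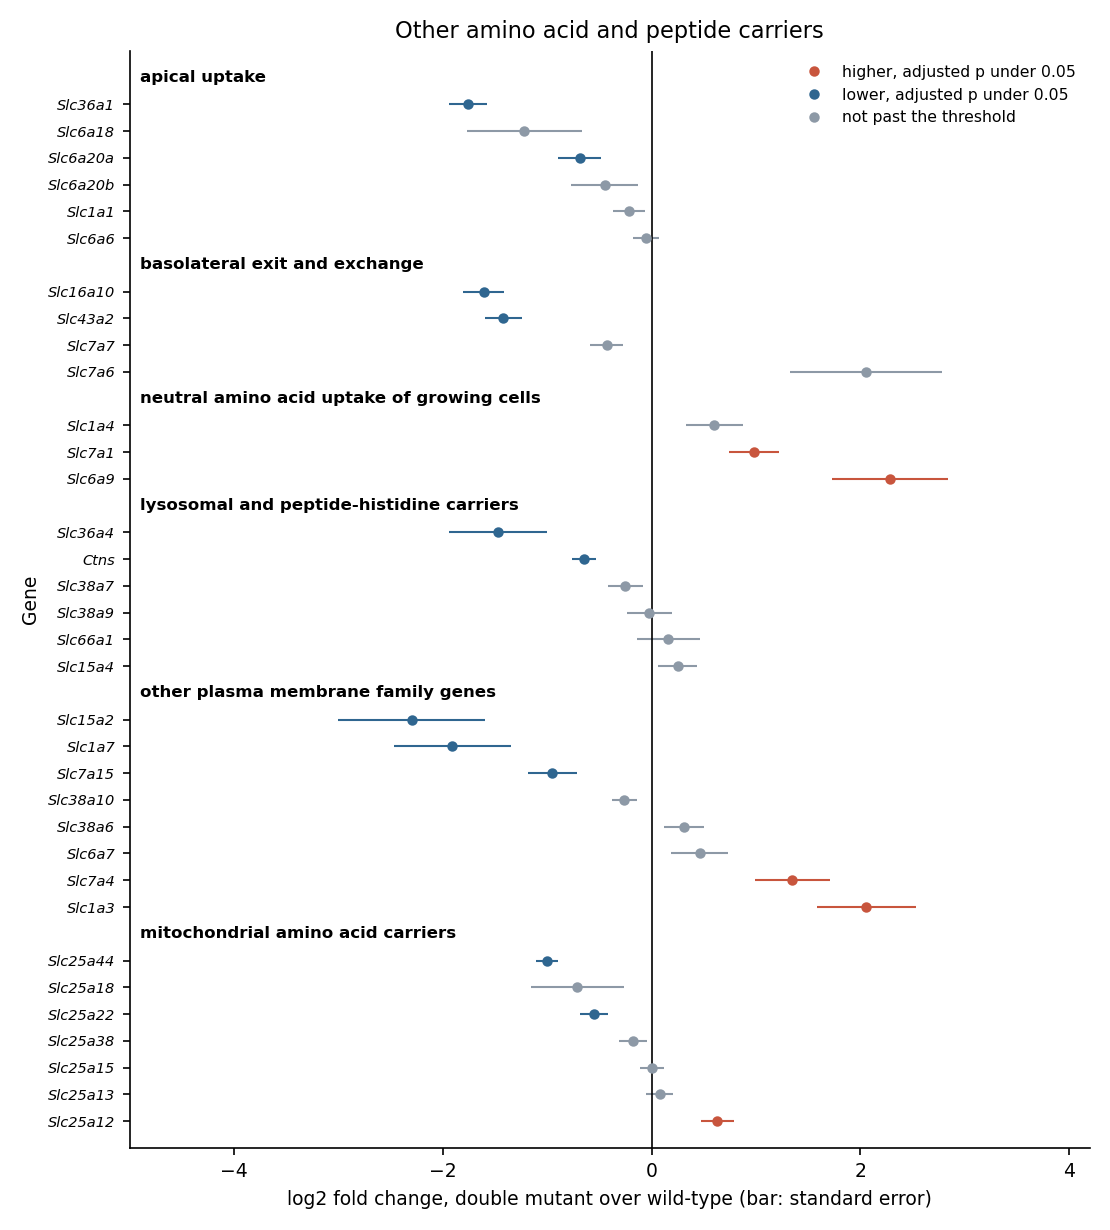
Log2 fold change of double mutant over wild-type villi with its standard error for the 34 other amino acid and peptide carriers tested, grouped by list. Red and blue points passed an adjusted p of 0.05 on the higher (5) and lower (11) side, and grey points (18) did not; no other apical carrier is red, and *Slc36a1*, *Slc16a10* and *Slc43a2* are the blue points with the smallest adjusted p beside *Slc25a44*.

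Genes whose proteins hold the apical carriers in place or exchange protons were mostly lower as well. Of 6 partner and proton-exchange genes tested, 5 were lower and none higher, with a median log2 fold change of -1.10. The scaffold genes *Pdzk1* (243 ± 57.9 to 79.9 ± 11.9 CPM, SD, n = 3; -1.61) and *Slc9a3r1* (-1.15) and the sodium-proton exchanger *Slc9a2* (-1.06) fell and passed in each fit that left out 1 mouse. *Slc9a3* (NHE3), which helps maintain the proton gradient that PepT1 uses, had a log2 fold change of -0.52 (edgeR adjusted p = 0.0321), lost without wild-type mouse 2 (-0.49) or 3 (-0.52) or double mutant mouse 2 (-0.42) or 3 (-0.43). *Cltrn*, a B0AT1 partner best known from kidney, was at 0.155 ± 0.0871 and 0.0779 ± 0.0716 CPM and was not tested.

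The peptidases that make the carriers' substrates were mostly lower, with 13 lower, 1 higher and 6 not passing among 20 tested (median log2 fold change -0.78). Of these 14 calls, 8 passed in each fit that left out 1 mouse. Neprilysin, *Mme*, measured 1741 ± 320 CPM in wild-type against 422 ± 140 CPM in double mutant villi (SD, n = 3; -2.04, SE 0.262, edgeR adjusted p = 0.000973). *Naaladl1* (-1.91) and the dipeptidyl peptidase *Dpp4* (-1.51, edgeR adjusted p = 0.000219) were the next largest falls. Aminopeptidase N, *Anpep*, went from 9704 ± 1651 to 5060 ± 62.3 CPM (-0.94). The single higher gene, *Dpp7*, had a log2 fold change of 0.51 (edgeR adjusted p = 0.0394) and failed the threshold when any 1 of the 6 mice was left out (0.42 to 0.58).

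Enzymes that use glutamine and glutamate were higher more often than lower: 11 higher, 3 lower and 6 not passing among 20 tested, with a median log2 fold change of 0.83. Of the 14 calls, 10 passed in each fit that left out 1 mouse. The largest rises were in the CTP synthase *Ctps* (1.16 ± 0.393 to 7.81 ± 0.864 CPM; 2.76, edgeR adjusted p = 0.000428), the serine pathway gene *Psat1* (2.31, edgeR adjusted p = 0.00893) and the ornithine aminotransferase *Oat* (204 ± 15.2 to 838 ± 40.9 CPM, SD, n = 3; 2.03, edgeR adjusted p = 2.28e-05). The asparagine synthetase *Asns* rose by 1.33 (edgeR adjusted p = 0.00762). The 3 that fell were the glutamate dehydrogenase *Glud1* (-1.11, edgeR adjusted p = 0.00457) and the aminotransferases *Got1* (-1.0, edgeR adjusted p = 0.000659) and *Gpt* (-0.55, edgeR adjusted p = 0.0192).

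Genes of branched-chain and other amino acid breakdown gave 7 higher, 3 lower and 8 not passing among 18 tested (median 0.62), and 2 of the 10 calls, *Dbt* and *Gcsh*, passed in each fit that left out 1 mouse. *Gcsh*, of the glycine cleavage system, rose from 16.9 ± 3.07 to 33.5 ± 4.54 CPM (SD, n = 3; 0.99). Amino acid sensing was divided, with 4 higher, 6 lower and 18 not passing among 28 tested (median -0.04), close to all tested genes (0.02). Of these 10 calls, 3 passed in each fit that left out 1 mouse. Over all tested genes 36.8% passed in either direction. *Castor2*, a relative of the arginine sensor *Castor1*, fell from 173 ± 14.7 to 64.9 ± 5.94 CPM (-1.41, edgeR adjusted p = 0.000145), *Sesn1*, a leucine-sensor relative, fell by 0.77 on the log2 scale, and *Wdr59*, of the GATOR2 complex, rose by 1.32. *Atf4*, the transcription factor of the amino acid response, was at 166 ± 6.32 and 144 ± 20.8 CPM, and did not pass (-0.21, edgeR adjusted p = 0.229).

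**Figure D4:**
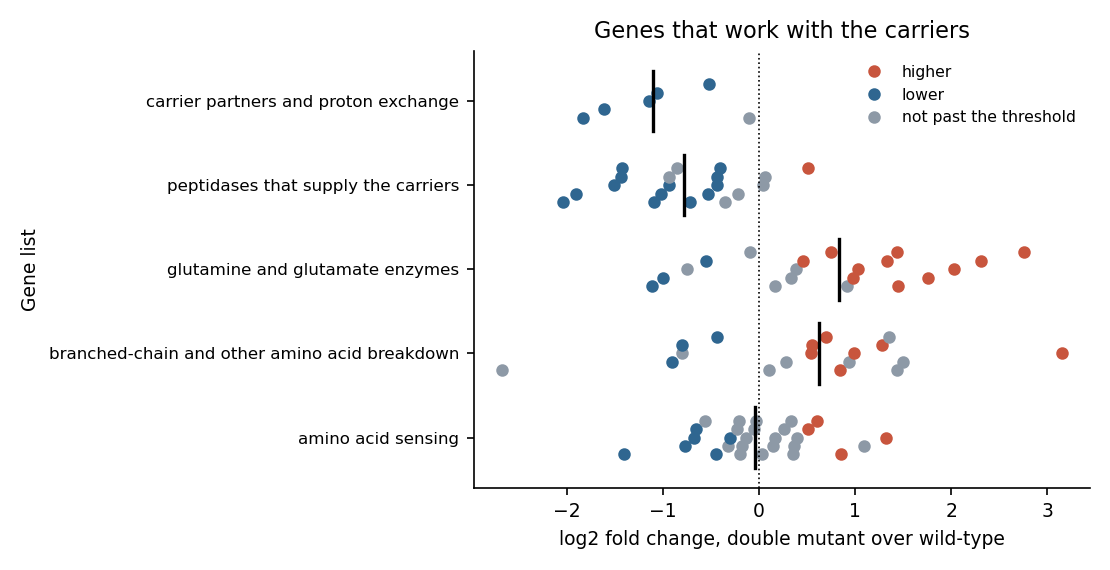
Log2 fold change of double mutant over wild-type villi for each tested gene of 5 lists (red higher, blue lower, grey not past an adjusted p of 0.05), spread vertically only to keep points apart, with a black bar at each list's median. The medians are -1.10 for carrier partners, -0.78 for peptidases, 0.83 for glutamine and glutamate enzymes, 0.62 for breakdown and -0.04 for sensing.

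The genes whose levels followed *Slc38a1* most closely over the 6 mice, out of 10307 genes that reached 50 counts in all 3 double mutant mice, were *Gm6136* (Pearson r of log2 CPM 0.999), *Eif1a* (0.999), an unnamed transcript (0.998), *Cdca7* (0.998) and *Prom1* (0.998). The 6 values fall into the 2 groups of mice, so that r mostly reflects the difference between groups. *Prom1*, the stem cell surface gene CD133, measured 13.7, 20.02 and 23.2 CPM in wild-type against 177, 140 and 173 CPM in double mutant mice.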

How the data were processed

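Bulk RNA-seq of poly(A) RNA from villus epithelium of 6 mice was analysed. The authors deposited raw read counts per gene, made by aligning reads to mm9 with HISAT2 and counting with featureCounts; the table lists 20409 features (20073 Ensembl genes, 336 numbered transcripts) with no normalization. Symbols came from an Ensembl ID table (20032 matched) and lengths and positions from GENCODE vM1 (mm9). Tests used edgeR 4.0.16 (R 4.3.3): filterByExpr, TMM factors and the robust quasi-likelihood test over 13346 genes, with Benjamini-Hochberg adjusted p under 0.05 as the threshold. The methods were tested on simulated data with the same dispersion for every gene and no mouse that stood apart. That did not test them under the spread between mice seen here. DESeq2 1.42.0, other scalings and filters, a replicate block, sex as a covariate and leaving out each mouse were alternatives. Levels per length are TMM CPM per kilobase of the union of exons. Named genes were all 10 carriers, *Smad4*, listed carriers past the threshold or of the SNAT family, *Cltrn*, up to 3 rises and 3 falls per other list, tested neighbours of *Slc38a1* and the 5 genes most like it. *Dbt*, *Anpep*, *Asns*, *Atf4*, *Slc1a4*, *Slc7a6*, *Slc7a7*, *Slc9a2*, *Slc9a3*, *Cd8a*, *Clca1*, *Fabp1*, *Lct*, *Ptprc*, *Sis* and *Prepl* were added after their values were seen. Some genes under this rule are not reported here. Members and lists were chosen with earlier results of these data known. Promoters are RefSeq, GRCm38.p6; figures were drawn with matplotlib 3.10.9.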

Additional observations from a re-analysis of the deposited data

How the results depend on the processing

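The members' log2 fold changes had the same sign in all 13 alternatives, a description of genes chosen from this comparison and no support for it, and the number past the threshold on the higher side was 2 without double mutant mouse 2 and 3 otherwise. The member that fell short without that mouse was *Slc1a5* (1.33). Scaling by library size alone gave the 6 lower members -0.33 (*Slc7a9*) to -1.76 (*Slc6a19*) and the 4 higher ones 1.01 (*Slc38a2*) to 3.91 (*Slc38a1*). With 1 mouse left out, the higher calls among other carriers ranged from 3 to 7 (5 with all mice), and among partners, peptidases, enzymes and sensors the higher calls ranged from 13 to 22 (23 with all mice) and the lower calls from 18 to 27 (30 with all mice). The lower calls among other carriers (11 with all mice) became fewer in each of these fits, most of all without double mutant mouse 1. With library size alone the lower calls among partners, peptidases, enzymes and sensors were 17. Of the genes named, *Slc6a20a* (-0.49), *Slc9a3* (-0.32) and *Gpt* (-0.36) were also short of the threshold under that scaling, *Slc15a2* without the low-count filter (-2.29) and with sex as a covariate (-2.21), and *Dpp7* with DESeq2 (0.48) and without the low-count filter (0.52). *Slc7a6* passed with DESeq2 (2.03), library size alone (2.25) and sex as a covariate (2.32), and *Slc7a7* with DESeq2 (-0.45). Fewer samples stood behind each fit that left out a mouse. The replicate numbers are shared by the groups, with number 1 male and the others female in both. Deviations from the group means correlated at 0.022, -0.109 and 0.012 between same-numbered mice. With so few mice in each group, these values cannot settle whether the mice were matched by number. With the replicate block *Slc7a7* (-0.43) and *Slc7a6* (2.43) passed, *Slc6a20a* (-0.69), *Slc9a3* (-0.54), *Gpt* (-0.56) and *Dpp7* (0.51) no longer did, and the members gave 3 higher and 6 lower, the other carriers 6 and 9, and the partner, peptidase, enzyme and sensing lists 17 and 21, of 3834 calls in all against 4905 without it. At these depths *Slc7a5* in wild-type mouse 1, at 2 counts, was under the 3 counts that a count of 0 allows.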
